A study of Mus musculus with 18 samples.

Results

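The mitochondrial ribosomal protein genes encode, in the nucleus, the proteins of the ribosome that works inside mitochondria. They were taken as the protein-coding genes of GENCODE release M21 whose symbols begin with Mrpl or Mrps and a digit, which gave 78 genes of 21938. Of these, 49 were Mrpl genes, named for the large subunit, and 29 were Mrps genes, named for the small subunit. Their chromatin was described in splenic B cells of C57BL/6 mice that carried Mir155 (WT) or lacked it (KO). B cells of both genotypes were kept for 2 days at 1% oxygen with anti-CD40 (1 µg/ml), anti-IgM F(ab')2 (5 µg/ml) and IL-4 (4 ng/ml), a mixture that stands in for the signals of positive selection. Chromatin immunoprecipitation with an antibody to KDM2A or to H3K36me2 gave 3 libraries per genotype and antibody, and replicate 1 was labelled male and replicates 2 and 3 female in every group. Ages were not stated in the labels. The labels did not say whether replicates were separate cultures of separate mice, so p-values measured the spread between these libraries. Every culture was hypoxic and stimulated, so the comparison was between genotypes only, and peak lists hold no readout of miR-155 itself.

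The mitochondrial ribosome makes the few proteins that mitochondrial DNA encodes, all of them parts of the respiratory chain and of ATP synthase, and every protein of that ribosome is imported from the cytosol. Most of these genes start in CpG islands, stretches of DNA rich in unmethylated CpG. KDM2A binds unmethylated CpG through a zinc finger and removes methyl groups from lysine 36 of histone H3, so that its substrate H3K36me2, the dimethylated form, is usually low at CpG islands and spreads over gene bodies and between genes. The study asked whether the loss of miR-155 changes where KDM2A and H3K36me2 lie in hypoxic B cells.

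The files were lists of broad peaks, 1 per library, in which each peak has a fold, its signal over the control background as the authors' peak caller gave it. Sequencing depth was unknown, because the lists carry peaks and not reads. The KDM2A lists held 23372 to 29105 peaks in WT and 15387 to 21705 in KO. The H3K36me2 lists held 85387 to 94136 peaks in WT, but 106720 in KO replicate 1 against 37447 and 45180 in the other KO libraries, so KO replicate 1 stood apart from its group. The main H3K36me2 values below are therefore also given without it, a choice made after seeing the data. KO replicate 1 was also the only male KO library, so without it sex was not balanced between the genotypes. KDM2A peaks lay at the promoters of all 7 B cell marker genes checked, including Cd22, Cd79a and Pax5, in 4 to 6 of 6 lists, and at those of 7 markers of other blood cells in 0 or 1 list. A weaker peak because fewer cells carried the protein at a site and a weaker peak because each cell carried less of it cannot be told apart in such bulk samples.

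A CpG-rich start was the rule more often among mitochondrial ribosomal protein genes than among other genes. In the 1 kb around the 5′ end, 62 of 78 members (79.5%) were called CpG-rich (at least 50% G and C, and at least 0.6 of the CpG that this base composition would give), against 9739 of 21938 protein-coding genes (44.4%). RefSeq promoter sequences on GRCm38, from 250 bases before to 50 bases after the start site, were found for 69 members, and their median number of CpG was 21 against 14 over 16521 promoters. Stretches upstream of the start that held no annotated exon are shown for 4 promoters at which KDM2A was found in all 6 lists, because they are among those with the highest folds or the largest differences between genotypes. They lay at chr19:6057786-6057843, minus strand for Mrpl49, chr14:57826186-57826233, plus strand for Mrpl57, chr7:105811100-105811259, minus strand for Mrpl17 and chr14:20393635-20393794, minus strand for Mrps16. Each is written 5′ to 3′ along the gene, with CpG in capitals.
Mrpl49: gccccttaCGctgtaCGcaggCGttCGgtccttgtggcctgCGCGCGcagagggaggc
Mrpl57: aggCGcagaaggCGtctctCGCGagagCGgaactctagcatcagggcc
Mrpl17: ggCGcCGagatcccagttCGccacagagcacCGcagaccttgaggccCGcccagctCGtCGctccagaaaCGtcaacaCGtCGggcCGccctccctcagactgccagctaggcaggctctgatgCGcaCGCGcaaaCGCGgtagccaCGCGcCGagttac
Mrps16: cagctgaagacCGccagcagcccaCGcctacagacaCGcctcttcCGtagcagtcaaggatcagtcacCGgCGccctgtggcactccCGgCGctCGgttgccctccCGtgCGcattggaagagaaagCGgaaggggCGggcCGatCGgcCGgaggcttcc
These stretches held 7 CpG in 58 bases at Mrpl49, 5 in 48 at Mrpl57, 19 in 160 at Mrpl17 and 16 in 160 at Mrps16, which is 10 to 12.1 per 100 bases. KDM2A peaks overlapped the printed stretch itself in 6 of 6 lists at Mrpl49, Mrpl57 and Mrpl17 and in 5 at Mrps16.

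For contrast, the same kind of stretch is shown for 3 of the 4 members whose promoters held no KDM2A peak in any list. The member not shown, Mrpl21, had 54 CpG in the 1 kb around its 5′ end, and it and Mrps22 had a CpG-rich start. They lay at chr9:98601680-98601839, minus strand for Mrps22, chr19:11770231-11770390, plus strand for Mrpl16 and chr19:4962056-4962146, plus strand for Mrpl11, again with CpG in capitals.
Mrps22: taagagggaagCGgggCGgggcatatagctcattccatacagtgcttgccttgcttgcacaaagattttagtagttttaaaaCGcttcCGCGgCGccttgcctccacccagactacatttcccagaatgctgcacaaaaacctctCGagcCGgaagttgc
Mrpl16: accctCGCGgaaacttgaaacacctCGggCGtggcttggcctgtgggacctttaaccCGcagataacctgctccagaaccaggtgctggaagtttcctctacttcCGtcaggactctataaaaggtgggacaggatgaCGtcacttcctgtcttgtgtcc
Mrpl11: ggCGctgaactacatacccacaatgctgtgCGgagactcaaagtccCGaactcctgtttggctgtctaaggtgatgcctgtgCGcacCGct
These held 8 CpG in 160 bases at Mrps22, 7 in 160 at Mrpl16 and 5 in 91 at Mrpl11, or 4.38 to 5.5 per 100 bases. The sequences were chosen for their KDM2A peaks after those were known, so the contrast is a description. Over all members, the median number of CpG in the 1 kb around the 5′ end was 70 for the 33 members with a KDM2A promoter peak in all 6 lists, 49 for the 38 members with a peak in 2 to 5 lists and 42 for the 7 members with a peak in 0 or 1 list. The same medians over all protein-coding genes were 70, 54 and 13, so the few members without KDM2A held more CpG than most genes without it.

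The first comparison asked how many mitochondrial ribosomal protein promoters KDM2A occupied in each genotype. A promoter counted as occupied when a peak touched the 2 kb on either side of any annotated transcription start site (TSS) of the gene. KDM2A occupied 58, 59 and 68 of the 78 promoters in WT replicates 1, 2 and 3 and 51, 53 and 60 in KO. The genotypes overlapped, since KO replicate 3 lay above WT replicates 1 and 2. The WT mean was 79.1% ± 7.06 and the KO mean 70.1% ± 6.06 (SD over 3 libraries), a mean difference of 7 genes. All protein-coding genes stood at 47.4% ± 0.796 in WT and 41.2% ± 3.54 in KO, and genes with a CpG-rich start at 74.6% and 67.6%. When every list was reduced to its 15387 strongest peaks, the shares were 74.8% in WT and 68.8% in KO for the members and 40.3% and 39.7% for all protein-coding genes. With only peaks of a −log10 q of at least 2, KDM2A occupied 66.7% to 70.5% of members in WT and 46.2% to 56.4% in KO, so that the genotypes no longer overlapped, and 35.8% and 26.7% of all protein-coding genes. Set as KO over WT, the shares gave 0.886 for the members and 0.868 for all protein-coding genes without that filter, and 0.744 for both with it. Whether the members differed from other genes in this was not tested.

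Related gene families gave a frame for these shares. Genes of the cytosolic ribosome, the Rpl and Rps genes, were occupied in 92.4% (WT) and 85.2% (KO) of 79 genes. The Nduf genes, which encode complex I of the respiratory chain, reached 76.8% and 68.8% of 46 genes, and the Timm and Tomm genes, which encode the protein import machinery of mitochondria, 69.3% and 65.3% of 25 genes. In both genotypes the means of the mitochondrial ribosomal protein genes lay below those of the cytosolic ribosome, and they differed from those of complex I by less than the spread between libraries. Within the members, the large-subunit genes (78.2% in WT, 69.4% in KO) and the small-subunit genes (80.5% and 71.3%) were within a library's spread of each other.

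**Figure D1:**
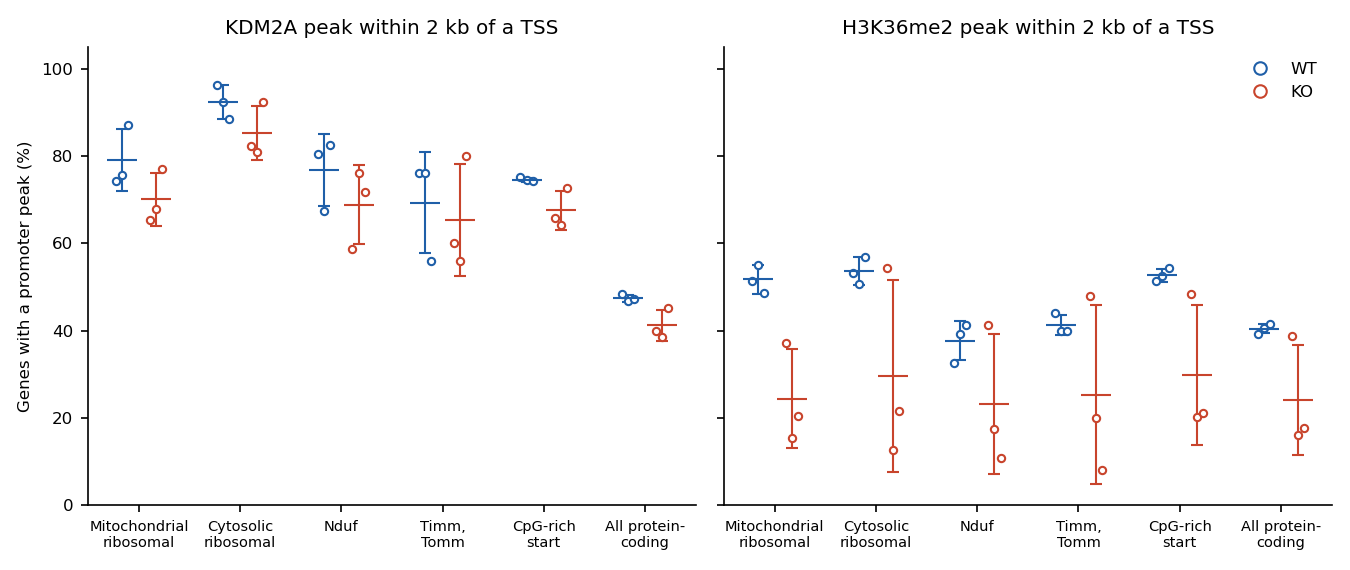
Percent of genes with a promoter peak of KDM2A (left) and of H3K36me2 (right) for 6 gene groups, with 1 open point per library, a bar for the mean and whiskers for the SD (n = 3 per genotype). For KDM2A the WT and KO libraries of the mitochondrial ribosomal protein genes overlap, whereas for H3K36me2 the KO libraries at 15.4% to 37.2% lie below the WT libraries at 48.7% to 55.1%.

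Counted gene by gene, 33 of 78 members (42.3%) had a KDM2A promoter peak in all 6 lists, against 26.4% of all protein-coding genes and 46.2% of those with a CpG-rich start. A peak was seen in fewer KO than WT lists at 25 members (32.1%), in more at 9 (11.5%) and in equal numbers at 44, beside 21.1% fewer and 7.33% more over all protein-coding genes and 24.9% and 9.2% of those with a CpG-rich start. A difference of at least 2 lists was used as the mark of a gain or loss. By it 5 members were lower in KO, a share of 6.41% beside a background of 5.23% of all protein-coding genes, and 0 members were higher, beside a background of 0.994%. The members' share of losses was near the background.

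**Figure D2:**
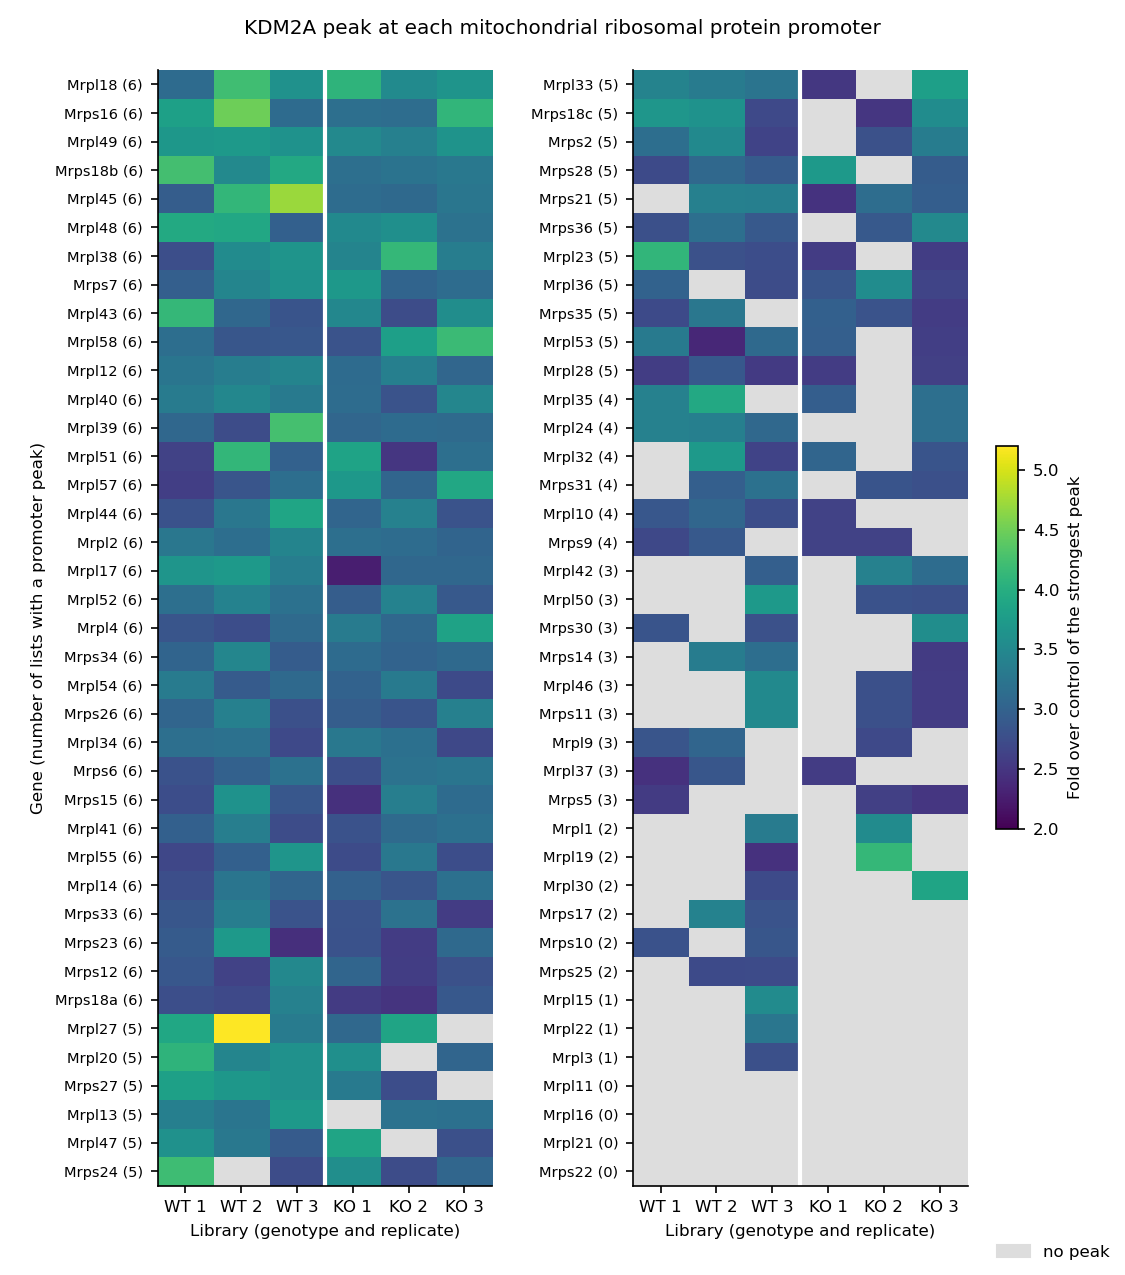
Fold over control of the strongest KDM2A peak at the promoter of each of the 78 genes (rows, ordered by the number of lists with a peak and by mean fold) in the 6 libraries (columns), with grey for no peak. The upper rows are occupied in every list, and the last 4 genes of the right-hand panel have no peak in any list.

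KDM2A sat on the start of these genes. In WT, 64.1% of members lay under a KDM2A peak at the 5′ end itself (57.7% to 73.1% over libraries), and in KO 55.6% (48.7% to 62.8%). At 1 kb upstream the shares had dropped to 12.8% and 8.12%. The peaks at the members were 530 to 785 bp wide in the median of a list and centred 64 to 125 bp into the gene, and 68.6% to 81.1% of them covered the 5′ end. Over all protein-coding genes the centres lay further in, at 161 to 210 bp, and 63.2% to 67.2% covered the 5′ end.

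H3K36me2 took the opposite place. In WT, 25.6% of members lay under an H3K36me2 peak 1 kb upstream of the 5′ end (24.4% to 26.9%), 6.41% at the 5′ end and 7.69% at 1 kb into the gene. The corresponding shares of all protein-coding genes were 14.2%, 6.77% and 9.21%. In KO the members stood at 9.83%, 0.855% and 2.14% and all protein-coding genes at 5.99%, 2.28% and 3.18%. Without KO replicate 1 the KO shares were 7.05%, 0.641% and 1.28% for the members and 4.09%, 1.14% and 1.6% for all protein-coding genes. H3K36me2 peaks in the promoter windows were centred upstream of the 5′ end at the members, with list medians from −935 to −715 bp, whereas the medians over all protein-coding genes ran from −31.5 to 637 bp.

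**Figure D3:**
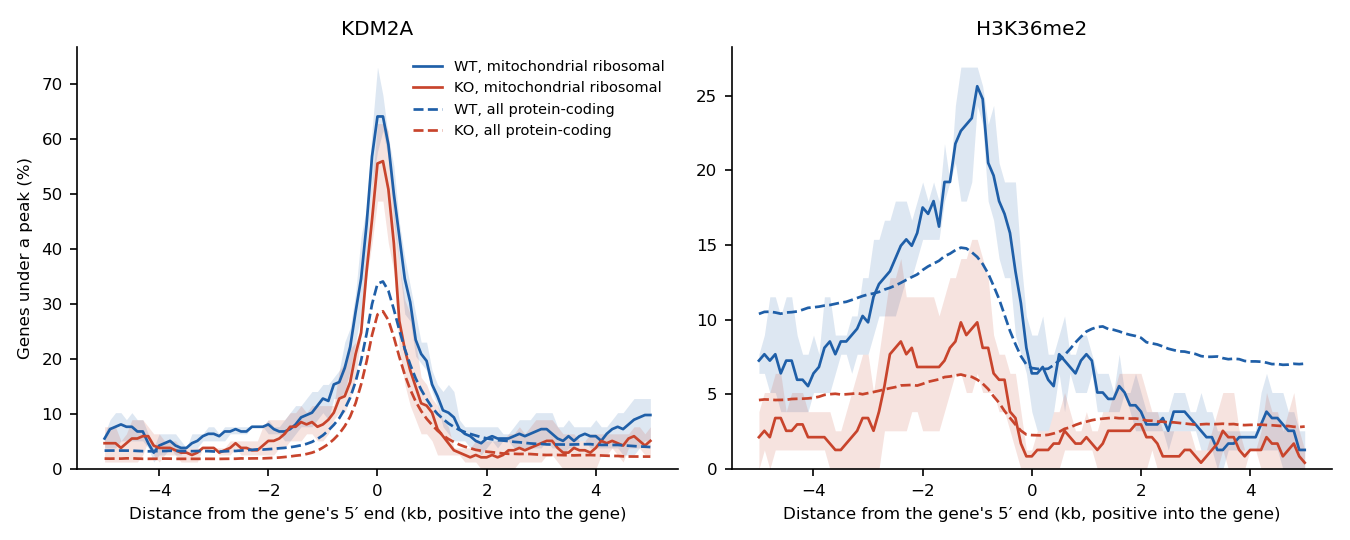
Percent of genes under a KDM2A peak (left) and an H3K36me2 peak (right) by distance from the 5′ end in steps of 100 bp, for the 78 mitochondrial ribosomal protein genes (solid, with shading for the range over 3 libraries) and all protein-coding genes (dashed). KDM2A forms a narrow peak at the 5′ end, where 64.1% of the members are covered in WT, and H3K36me2 dips there and is highest about 1 kb upstream.

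Among members occupied in all 6 lists, the highest mean KDM2A folds were those of Mrpl18, Mrps16, Mrpl49, Mrps18b, Mrpl45 and Mrpl48. Mrpl49 was the steadiest of them. Its fold was 3.69, 3.74 and 3.63 in WT replicates 1, 2 and 3 and 3.51, 3.40 and 3.64 in KO, and its peak formed part of a 19551-bp interval that also covered the divergent gene Fau, whose product carries a cytosolic ribosomal protein. Mrpl18 encodes a large-subunit protein and stood at 3.12, 4.22 and 3.62 in WT and at 4.08, 3.53 and 3.65 in KO, with the genotypes interleaved. Mrps16, which encodes a small-subunit protein kept from bacteria, had 3.82, 4.49 and 3.12 in WT and 3.17, 3.14 and 4.11 in KO. Mrpl48 read 3.94, 3.92 and 2.99 in WT and 3.52, 3.59 and 3.20 in KO. None of these 4 separated the genotypes. The median fold over occupied members averaged 3.16 ± 0.159 (WT) and 3.08 ± 0.0274 (KO, SD over 3 libraries), with overlapping genotypes, and over all occupied protein-coding genes 3.02 and 2.94.

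At the other end, 4 members had no KDM2A promoter peak in any list. They were Mrps22, which encodes a small-subunit protein particular to mitochondria, and Mrpl11, Mrpl16 and Mrpl21, which encode large-subunit proteins with bacterial relatives. The last 3 lie on chromosome 19, as do Mrpl43 and Mrpl49, which were occupied in all 6 lists. Mrpl3, Mrpl15 and Mrpl22 had a peak in WT replicate 3 only, with folds of 2.78, 3.54 and 3.26. WT replicate 3 was thus the library in which most members were occupied, and no other library held a member that was occupied nowhere else. The 5 processed pseudogenes of the family that are annotated, such as Mrpl48-ps and Mrps36-ps1, had a promoter peak of neither antibody in any list.

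The 5 members that lost KDM2A in at least 2 KO lists were Mrpl10, Mrpl24, Mrps10, Mrps17 and Mrps25. Mrpl10, which encodes the base protein of the large-subunit stalk, had folds of 2.87, 3.06 and 2.76 in WT and 2.63 in KO replicate 1 only. Mrpl24 had 3.40, 3.38 and 3.08 in WT and 3.17 in KO replicate 3 only. The 3 small-subunit genes had a peak in 2 WT lists and in no KO list. For Mrps17 these were 3.42 and 2.82 in WT replicates 2 and 3, for Mrps10 2.80 and 2.86 in replicates 1 and 3, and for Mrps25 2.72 and 2.73 in replicates 2 and 3. Apart from Mrpl24 and WT replicate 2 of Mrps17, these folds lay below the median of occupied members. The KO lists held fewer peaks, and the part of this in the losses was not tested.

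The next comparison asked whether the fold of KDM2A at occupied promoters differed between KO and WT. It was limited to the 5786 protein-coding genes, 33 members among them, with a promoter peak in all 6 lists, and each library's log2 folds were centred on their median. limma with Benjamini-Hochberg adjustment called 0 of 5786 genes at an adjusted p of 0.05 (background 0%), and 299 genes had an unadjusted p below 0.05. The 33 members split into 17 higher and 16 lower in KO, and their median change was 0.00073 on the log2 scale against 0.0022 for all genes tested. Their changes ran from −0.31 to 0.37. A p above the threshold does not show that the folds were alike.

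Mrpl57, Mrpl58 and Mrpl4 were the members with the largest increases. Mrpl57, which encodes a large-subunit protein particular to mitochondria, had folds of 2.59, 2.85 and 3.16 in WT and 3.71, 3.04 and 3.92 in KO, and the change on the centred log2 scale was 0.37 ± 0.12 (SE, limma adjusted p = 0.914). Mrpl4, a large-subunit gene, went from 2.84, 2.76 and 3.11 in WT to 3.33, 3.07 and 3.85 in KO, a change of 0.29 ± 0.12 (adjusted p = 0.914). Mrpl58 encodes a peptidyl-tRNA hydrolase that frees stalled chains and is also built into the large subunit. Its folds were 3.15, 2.86 and 2.86 in WT and 2.82, 3.81 and 4.19 in KO, with KO replicate 1 below every WT library and the other KO libraries above them, a change of 0.33 ± 0.14 (adjusted p = 0.914). The changes of Mrpl38 (0.20 ± 0.14) and Mrpl18 (0.11 ± 0.13) were smaller.

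With all libraries, Mrpl17 had the lowest change of the members. This large-subunit gene had folds of 3.67, 3.73 and 3.35 in WT and 2.27, 3.07 and 3.07 in KO, and every KO library lay below every WT library (change −0.31 ± 0.13, adjusted p = 0.914). Without KO replicate 1 its change was −0.16, smaller in size than those of Mrpl45 (−0.21) and Mrps18b (−0.19). Mrpl45, whose product lies at the tunnel exit and helps tie the ribosome to the inner membrane, had 2.94, 4.11 and 4.72 in WT and 3.14, 3.09 and 3.26 in KO. Its WT replicates 2 and 3 were above every KO library and its WT replicate 1 was below them (−0.22 ± 0.15, adjusted p = 0.914), and the change was −0.39 without WT replicate 1 and −0.07 without WT replicate 3. Mrps18b stood at 4.25, 3.503 and 3.93 in WT and at 3.17, 3.22 and 3.28 in KO. Its KO folds were all below its WT folds as deposited but not after centring (−0.21 ± 0.13, adjusted p = 0.914). Mrps18a (−0.10) and Mrps16 (−0.07) changed by less than their standard errors of 0.11 and 0.15. After centring, WT and KO libraries were fully apart at 2 members higher in KO (Mrpl57 and Mrpl4) and 1 lower (Mrpl17). That is 6.06% and 3.03% of 33 members beside a background of 5.2% and 5.17% of all genes tested. At an unadjusted p below 0.05 there were 3 members higher and 1 lower, beside a background of 3.16% and 2% of genes.

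**Figure D4:**
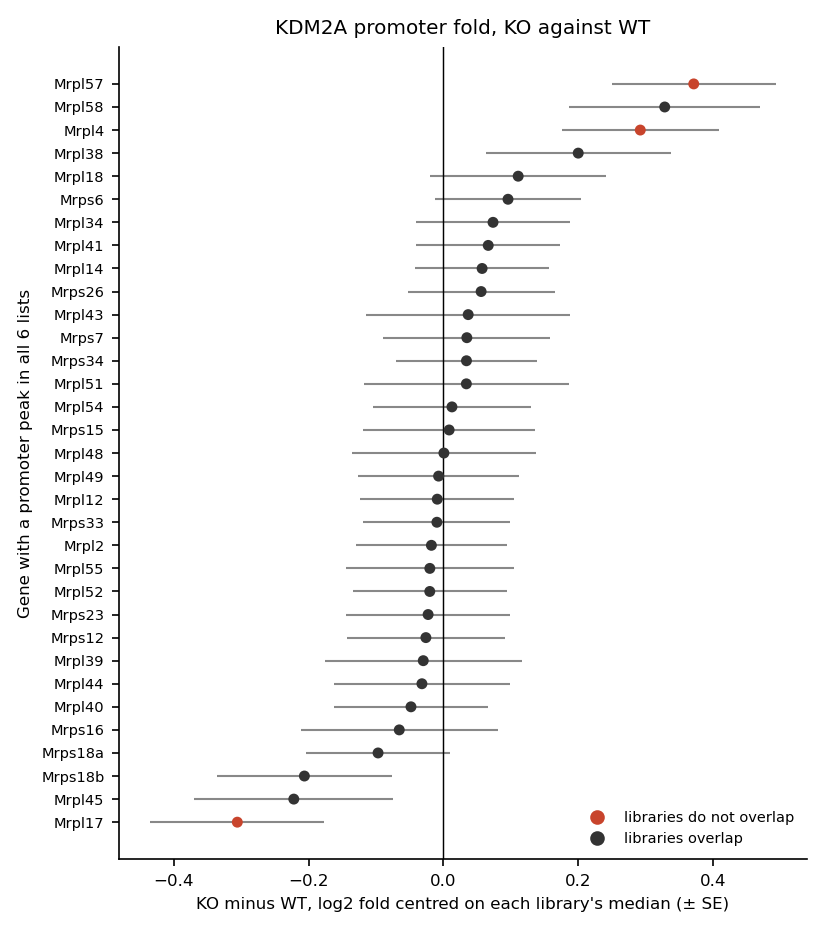
Change in KDM2A promoter fold, KO minus WT on the centred log2 scale with its standard error from limma, for the 33 members with a promoter peak in all 6 lists. Red points mark Mrpl57, Mrpl4 and Mrpl17, whose libraries do not overlap between genotypes, and most other error bars cross 0.

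The study sorted merged KDM2A peaks into WT-enriched and KO-enriched intervals. Its thresholds were applied here, without a test, to intervals merged anew and assigned to genes by overlap, so the intervals and genes need not be those of the study. An interval needed a peak in at least 2 of 3 lists of a genotype and a mean fold over 3, and, where both genotypes had it, a mean at least 1.17 times that of the other. Over a gene and its promoter windows, 13 members had a WT-enriched interval, a share of 16.7% beside a background of 7.08% of protein-coding genes. A KO-enriched interval was found at 4 members, or 5.13%, beside a background of 1.53%. The members are occupied more often than most genes, which gives them more intervals that could pass, and the part of this in the counts was not tested. The counts moved with single libraries. A peak in at least 2 lists was still required, so a genotype with a library left out needed a peak in every remaining list. That alone can lower its own count and raise that of the other genotype, and its part was not tested. Without WT replicate 2 there were 7 WT-enriched and 8 KO-enriched members, beside 4.47% and 3.55% of all protein-coding genes. Without KO replicate 3 there were 22 and 1, beside 11.4% and 1.04%, and without WT replicate 1 there were 10 and 7, beside 7.78% and 2.6%. With folds scaled to a common median at the intervals present in all lists, an alternative chosen after seeing the data, there were 6 of each, beside 4.08% and 2.85%.

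The 4 KO-enriched intervals all covered the 5′ end of the gene. They lay at Mrpl57, Mrpl58, Mrpl4 and Mrpl42. The mean fold at Mrpl57 was 3.56 in KO and 2.86 in WT, a ratio of 1.24, and that at Mrpl58 was 3.603 and 2.96, a ratio of 1.22. Mrpl4 passed narrowly at 1.18, while Mrpl38 and Mrps28, each at 1.15, stayed just under the threshold of 1.17. Mrpl42, a large-subunit gene, entered through peaks of 3.41 and 3.13 in KO replicates 2 and 3, with a peak of 2.97 in WT replicate 3 as the only WT list.

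Of the 13 WT-enriched intervals, 9 covered the 5′ end and 4 did not. The 9 were at Mrpl17, Mrpl24, Mrpl27, Mrpl45, Mrps14, Mrps17, Mrps18b, Mrps21 and Mrps27. Mrpl27 held the highest promoter fold of any member in a library, 5.19 in WT replicate 2, beside 3.91 and 3.33 in the other WT lists and 3.08 and 3.87 in KO replicates 1 and 2. Mrps27, which encodes a small-subunit protein that binds RNA, had 3.82, 3.70 and 3.62 in WT and 3.32 and 2.76 in KO replicates 1 and 2. Mrps21 had 3.39 and 3.38 in WT replicates 2 and 3 and 2.47, 3.14 and 2.95 in KO. Mrps14 had 3.34 and 3.15 in WT replicates 2 and 3 and 2.56 in KO replicate 3. At each of these genes the mean was higher in WT, and 1 or more lists of a genotype lacked the peak. The intervals away from the 5′ end were centred 684 bp into Mrpl23, 3187 bp into Mrpl35, 25335 bp into Mrpl48 and 5087 bp from the 5′ end of Mrps16, past the end of that gene. The promoter peak of Mrps16 itself was not WT-enriched, with means of 3.81 in WT and 3.48 in KO.

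Many of these genes share their promoter with a neighbour, so a peak there belongs to both. Another protein-coding gene started within 1 kb on the opposite strand at 33 of 78 members (42.3%), against 2382 of 21938 protein-coding genes (10.9%). Mrpl46 and Mrps11 are such a pair, with 5′ ends 412 bp apart, and they share a single KDM2A interval, with a fold of 3.51 in WT replicate 3 and of 2.78 and 2.57 in KO replicates 2 and 3. They were counted as 2 members but hold 1 measurement. Mrps12, which encodes a protein of the decoding centre, starts 172 bp from Sars2, the mitochondrial seryl-tRNA synthetase gene, and both have folds of 2.87, 2.63 and 3.49 in WT and 3.05, 2.58 and 2.79 in KO. Mrpl36 and Mrpl47 stand back to back with Ndufs6 and Ndufb5 of complex I, at 29 and 615 bp. Mrps18b starts 45 bp from Ppp1r10, Mrpl57 49 bp from Ska3 and Mrps18c 29 bp from Helq.

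The other genes of mitochondrial translation were read in the same way. Of 5 proteins of the mitochondrial ribosome whose genes carry other symbols, Dap3, Chchd1, Aurkaip1 and Gadd45gip1 had a KDM2A promoter peak in all 6 lists and Ptcd3 in 5. Gadd45gip1 had folds of 3.12, 2.83 and 3.07 in WT and 4.11, 3.24 and 3.59 in KO, with every KO library higher (0.34 ± 0.13, limma adjusted p = 0.914). Aurkaip1 had 3.16, 3.33 and 3.18 in WT and 3.00, 2.75 and 3.00 in KO, with every KO library lower. The same held at Ears2, which encodes an aminoacyl-tRNA synthetase, with 3.54, 4.14 and 3.59 in WT and 3.35, 3.25 and 2.94 in KO. Over all genes tested, the genotypes were apart in this way at 5.2% (higher in KO) and 5.17% (lower). A peak in all 6 lists was found at 2 of 15 translation factors (Tufm, the elongation factor Tu, and Lrpprc, an RNA-binding protein). It was found at 6 of 19 assembly factors, such as the RNA helicases Ddx28 and Dhx30. Among aminoacyl-tRNA synthetases it was found at 5 of 17, such as Ears2 and Vars2. The share was 26.4% over all protein-coding genes and 46.2% over those with a CpG-rich start. Such a start was found at 14 of the 15, 16 of the 19 and 14 of the 17 genes. Only genes with a peak in all 6 lists entered the KDM2A fit, which were 4, 2, 6 and 5 genes of these lists, and limma called 0 of them at an adjusted p of 0.05, with 1 (Gadd45gip1) at an unadjusted p below 0.05, which 5.17% of all genes tested reached. Gfm1 and Mtrf1, an elongation and a release factor, had no KDM2A promoter peak in any list.

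H3K36me2 was compared next at the same promoters. An H3K36me2 peak touched the promoter windows of 40, 43 and 38 members in WT and of 29, 12 and 16 in KO, so the genotypes did not overlap. The WT mean was 51.7% ± 3.23 and the KO mean 24.4% ± 11.4 (SD over 3 libraries), with KO replicate 1 highest among the KO libraries at 37.2%. Over all protein-coding genes the shares were 40.4% and 24.1%, and the KO share divided by the WT share was 0.597, or 0.567 with a CpG-rich start, against 0.471 for the members. In KO replicate 1 the share was 37.2% of members and 38.6% of all protein-coding genes, and in KO replicates 2 and 3 it was 15.4% and 20.5% of members and 16.1% and 17.7% of all genes. Without KO replicate 1 the KO share divided by the WT share was 0.347 for the members, 0.39 for genes with a CpG-rich start and 0.417 for all protein-coding genes.

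Gene by gene, 20 of 78 members (25.6%) lost the H3K36me2 promoter peak in at least 2 KO lists, beside a background of 15.1% of all protein-coding genes and 21.1% of those with a CpG-rich start. A peak was present in at least 2 more KO lists at 1 member (1.28%), beside a background of 0.474%. That member was Mrpl36, with a peak of 2.43 in WT replicate 2 and of 2.71, 2.51 and 2.66 in KO. A peak in all WT lists and no KO list was seen at 4 members (5.13%), beside a background of 2.12% and 3.2% of CpG-rich starts. With KO replicate 1 left out there were 10 such members (12.8%), beside a background of 9.49% and 12.7% of CpG-rich starts. The 4 members were Mrpl1 (2.63, 2.41 and 2.79 in WT), Mrpl2 (2.79, 2.47 and 2.44), Mrpl23 (2.66, 2.56 and 2.45) and Mrpl42 (2.39, 2.55 and 3.07). At the other extreme, Mrpl44, Mrpl48, Mrpl52 and Mrpl54 had an H3K36me2 peak in all 6 lists. The genes of this paragraph were picked by these counts after their values were seen.

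Both antibodies at the same promoter were found at 33, 35 and 34 members in WT and at 23, 7 and 13 in KO. KDM2A without H3K36me2 was found at 25, 24 and 34 members in WT and at 28, 46 and 47 in KO. Promoters with neither were 13, 11 and 6 in WT and 21, 20 and 15 in KO. Members with KDM2A and no H3K36me2 were thus most numerous in KO replicates 2 and 3, while KO replicate 1 lay within the WT range. The same class over all 21938 protein-coding genes held 3535 to 3812 genes in WT and 3361, 6221 and 7105 in KO replicates 1, 2 and 3. Both antibodies were found at 6583 to 6804 of these genes in WT and at 5368, 2237 and 2812 in KO. Neither was found at 9323 to 9508 in WT and at 10100, 12193 and 10954 in KO.

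H3K36me2 covered little of the members' gene bodies. Coverage, the percent of the gene from end to end that lay under H3K36me2 peaks, averaged 3.26%, 3.72% and 1.98% over the 78 genes in WT and 1.89%, 0.685% and 0.382% in KO. Every WT library lay above every KO library, though WT replicate 3 and KO replicate 1 were close. The means were 2.98% ± 0.902 and 0.986% ± 0.797 (SD over 3 libraries), against 6.19% ± 0.581 and 2.44% ± 1.97 over all protein-coding genes. KO over WT came to 0.33 for the members, 0.367 for genes with a CpG-rich start and 0.394 for all protein-coding genes, and without KO replicate 1 to 0.179, 0.192 and 0.21. Divided by the share of the genome each list covered, the ratios were 0.656 and 0.795, and the members' libraries overlapped, with WT replicate 3 below KO replicates 1 and 2. With every list reduced to its strongest peaks, in equal numbers, they were 0.43 and 0.444. With only peaks of a −log10 q of at least 2 the members' order turned, to 0.109% in WT and 0.177% in KO, while all protein-coding genes stood at 1.11% and 0.423%. For the members, KO replicate 1 then stood at 0.511% against 0.00599% and 0.0146% in the other KO libraries. The median member had no coverage in any library, so these averages rest on the 18 to 23 genes with coverage in a list, or 6 and 8 genes in KO replicates 2 and 3.

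**Figure D5:**
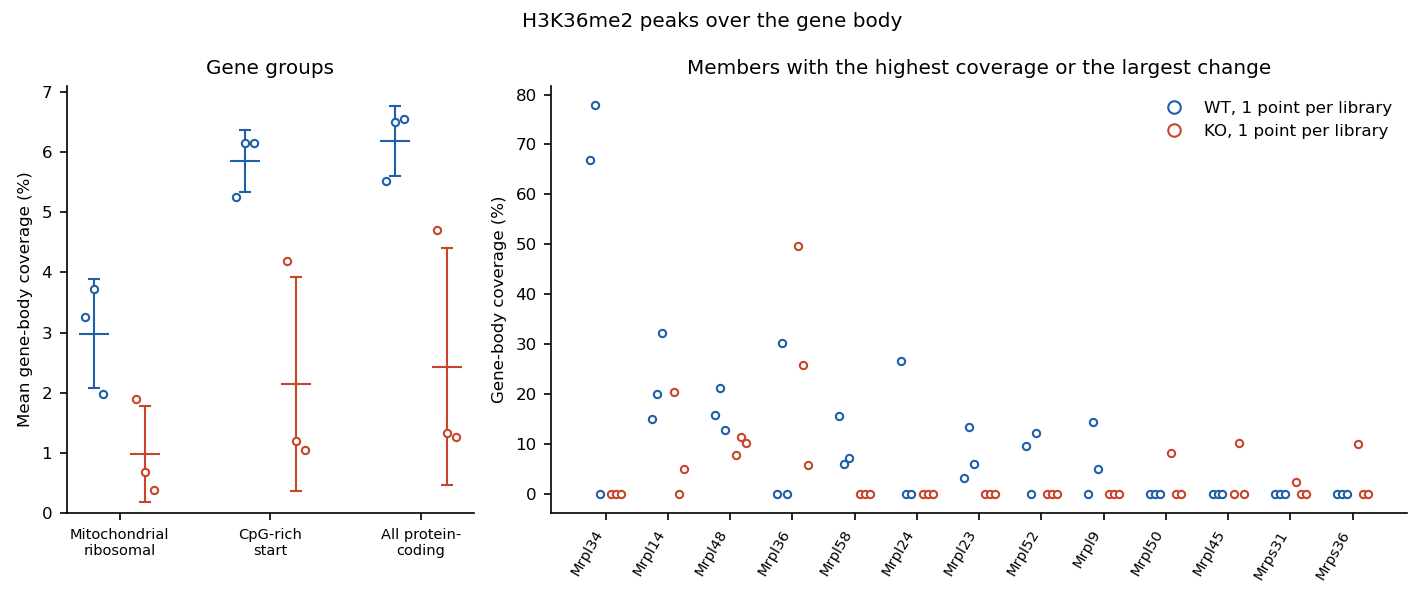
H3K36me2 gene-body coverage in percent of the gene's length, as the mean of 3 gene groups (left, with bars for the mean and whiskers for the SD over 3 libraries) and for 13 named members (right), with 1 open point per library. The members lie below all protein-coding genes in both genotypes, and single genes such as Mrpl34 and Mrpl36 reach over 40% in single libraries while most points are at 0.

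The gene-body test took the 12761 genes with coverage in at least 1 list, 44 members among them, on log2 of the percent plus 1. limma called 9 genes at an adjusted p of 0.05, a background of 0.0705%, and 0 members. An unadjusted p below 0.05 was reached by 4 of the 44 members (9.09%), beside a background of 15.9% of all genes tested. The smallest adjusted p of a member was 0.307. As for KDM2A, a p above the threshold does not show that coverage was alike. A gene that entered through 1 genotype only had to differ, so the 37 lower and 7 higher members (84.1% lower, against 86.6% of all genes tested) are a description. The median change was −0.86 for these members and −1.06 for all genes tested. Libraries of the genotypes did not overlap, with KO lower, at 5 members (11.4% of 44) beside a background of 22.8%, and with KO higher at 0 members beside a background of 0.0862%. Without KO replicate 1, and so without a male KO library, the same test called 2825 of 12064 genes (23.4%). It called 4 of 41 members, namely Mrpl14, Mrpl23, Mrpl33 and Mrpl58, all lower in KO. Of these, Mrpl23 and Mrpl58 had coverage in WT lists only and so had to differ once they entered.

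Mrpl58, Mrpl23 and Mrps18a were covered in every WT list and in no KO list. They entered the fit through WT alone, so their changes are given as a description. Mrpl58 was covered to 15.6%, 6.04% and 7.17% in WT and to 0% in each KO library (−3.30 on the log2 scale). It is the gene whose KDM2A promoter fold was higher in KO replicates 2 and 3. Mrpl23, whose product lies at the tunnel exit, was covered to 3.25%, 13.3% and 6.003% in WT and to 0% in KO (−2.91), and its KDM2A interval was WT-enriched. Mrps18a followed with 1.53%, 4.16% and 1.97% in WT and 0% in KO (−1.76). Mrpl33 was covered to 7.16%, 6.60% and 9.79% in WT and to 5.64%, 0% and 1.71% in KO. Mrpl48 kept 7.68%, 11.4% and 10.2% in KO against 15.8%, 21.2% and 12.8% in WT.

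Coverage of other members varied between libraries of a genotype. Mrpl34, a gene of 789 bp, was covered to 66.8% and 77.8% in WT replicates 1 and 2 and to 0% elsewhere, WT replicate 3 included (−4.13). Mrpl24 was covered to 26.6% in WT replicate 1 and in no other list. Mrpl52 (9.66% and 12.1% in WT replicates 1 and 3) and Mrpl9 (14.4% and 4.90% in WT replicates 2 and 3) had no coverage in KO. Mrpl14 had 15.0%, 20.01% and 32.2% in WT and 20.4%, 0% and 5.05% in KO. Mrpl36 went the other way, with 30.3% in WT replicate 2 alone and 49.6%, 25.8% and 5.70% in KO (2.73 ± 1.44, SE, limma adjusted p = 0.314). Mrpl50 (8.26%), Mrps36 (10.0%) and Mrps31 (2.34%) were covered in KO replicate 1 only and Mrpl45 (10.1%) in KO replicate 2 only. The last 2 members with a higher KO mean on the log2 scale were Mrpl42, with 1.18% in WT replicate 3 and 2.75% in KO replicate 1, and Mrps15, with 5.66% in WT replicate 3 and 2.22% and 2.44% in KO replicates 1 and 3. Coverage is a percent of gene length, so a single peak can cover most of a short gene. The part of gene length in these values was not tested.

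Some members were named for their roles, and Mrpl45, Mrpl58 and Mrps12 among them are described above. Mrpl12, which encodes the stalk protein that also binds the mitochondrial RNA polymerase, was occupied by KDM2A at 3.24, 3.36 and 3.44 in WT and 3.12, 3.38 and 3.06 in KO, while H3K36me2 covered 5.14% of it in WT replicate 1 only. Mrps18a, Mrps18b and Mrps18c are paralogs that encode alternative relatives of the bacterial protein S18. Mrps18a was occupied in all 6 lists at 2.76, 2.70 and 3.41 in WT and 2.56, 2.48 and 2.88 in KO, and Mrps18c in 5, at 3.68, 3.63 and 2.70 in WT and 2.51 and 3.56 in KO replicates 2 and 3. Of the 3 genes Mrps18b had the highest WT mean, 3.89, and no H3K36me2 promoter peak in any list. Mrps36, whose product is now counted with the oxoglutarate dehydrogenase complex, had KDM2A folds of 2.78, 3.17 and 2.90 in WT and 2.89 and 3.51 in KO replicates 2 and 3. Mrpl3, a core large-subunit gene, was occupied by KDM2A in WT replicate 3 only and by H3K36me2 in KO replicate 1 only.

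Short motifs known from promoters of nuclear genes for mitochondria were counted in the 69 RefSeq promoters on either strand. The ETS core CGGAAG was found in 38 of 69 member promoters (55.1%), against 22.2% of 16521 promoters and 34.6% of 7620 with a CpG-rich start. The NRF1 core GCGCATGC was found in 8 (11.6%, against 3.77% and 6.48%) and the YY1 motif AAGATGGCG in 8 (11.6%, against 2.03% and 3.57%). The CRE TGACGTCA was found in 2 (2.9%, against 2.42% and 3.64%). Among the printed stretches, the ETS core was present in those of Mrps16, Mrps22 and Mrpl16, and the CRE in that of Mrpl16. The ETS core was thus present in a promoter occupied by KDM2A and in 2 that were not. These matches describe letters in a window and not binding.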

How the data were processed

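Peak lists of 12 ChIP-seq libraries were used. Input libraries were not analysed here. The authors mapped reads to GRCm38 (BWA) and ran MACS2 on each library for broad peaks, within nf-core/chipseq. The deposited fold is a ratio to control, without scaling across libraries, and the deposited −log10 columns hold p-values and q-values. Depth is unknown, so no counting interval can be given.

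Genes came from GENCODE M21. A promoter peak touched 2 kb on either side of any TSS, and the strongest gave the fold. Log2 folds and log2(coverage percent + 1) were fitted with limma 3.58.1 in R 4.3.3 (trend, Benjamini-Hochberg, threshold 0.05), without a replicate block. The fits were tested on simulated data, in which they missed most of the smaller changes. Members and lists were chosen with earlier results of these data known. By rule, named genes were the extremes of fold, coverage and change, those with a peak in at most 1 list or with lists differing by 2 or 3, those with enriched intervals, and genes with known roles. Other windows, a q filter, equal peak numbers, scalings and leaving out each library were tried.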

Additional observations from a re-analysis of the deposited data

Results flagged for a closer look

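The male pair of libraries (replicate 1) and the female libraries (replicates 2 and 3) moved in opposite directions in 3 of 28 measures compared, counting only those where every pair of a female KO and a female WT library went against the male pair. The median KDM2A promoter fold of occupied members was higher in KO by 0.00978 in the male pair and lower in every female comparison (−0.129 in the mean), and the same median over all occupied protein-coding genes moved likewise, by 0.066 in the male pair and −0.153 in the female mean. The centred log2 KDM2A fold of Mrpl45 was higher in KO by 0.098 in the male pair and lower in every female comparison (−0.382 in the mean). That of Mrpl58 differed by −0.158 in the male pair and by 0.572 in the mean of the female comparisons. With 1 male library per genotype these differences were not tested, and sex cannot be told apart from the single library.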

How the results depend on the processing

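The KDM2A fit called 0 genes and 0 members under every alternative run, with 140 to 344 genes at an unadjusted limma p below 0.05. The change of Mrps18a ran from −0.19 without WT replicate 2 to 0.015 without WT replicate 3, and that of Mrps16 from −0.20 without WT replicate 3 to 0.028 without WT replicate 2. With each library left out, the largest changes kept their sign but moved in size, from 0.22 to 0.50 for Mrpl58, 0.093 to 0.28 for Mrpl38 (lowest without KO replicate 2), 0.027 to 0.19 for Mrpl18 (lowest without WT replicate 1), −0.31 to −0.12 for Mrps18b, −0.39 to −0.16 for Mrpl17 and −0.39 to −0.07 for Mrpl45. Between WT and KO libraries, deviations from genotype means correlated at −0.0305 to 0.0563 for equal replicate numbers and −0.0636 to 0.0307 for unequal ones. Such weak correlations do not show whether replicate numbers paired the libraries. With the replicate block the H3K36me2 fit called 0 genes in place of 9 (1500 at an unadjusted p below 0.05), and the KDM2A fit 0 (308). The H3K36me2 fit called 22 genes over all protein-coding genes, 27 with coverage in at least 3 lists, and 0 after division by the genome-wide share, with a pseudocount of 0.1 or with the q filter (761, 1883 and 201 at an unadjusted p below 0.05). Leaving out each library gave 0 to 2825 calls and 0 to 4 members, with both maxima without KO replicate 1 and 0 without any other (742 to 1379 at an unadjusted p below 0.05). Division by the genome-wide share went with a pseudocount of 0.1 in place of 1, and the median change of all genes was −0.74 in place of −1.06. These scales are unlike, so the shift cannot be credited to the division alone. The ratio of KO to WT of occupied members was 0.744 with the q filter and 0.843 to 0.934 with each library left out. That of gene-body coverage was 0.656 after division by the genome-wide share, 1.63 with the q filter and 0.179 to 0.432 with each library left out. WT-enriched members were 6 after scaling at intervals in all lists and 7 to 22 with each library left out, and KO-enriched members 1 to 8. With a library left out, a peak in at least 2 lists of its genotype was still required. The causes of these shifts were not tested. Read depth, which the lists do not give, limits every count of peaks.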
